A study of Mus musculus with 16 samples.

Results

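The cytosolic ribosome, the particle that reads messenger RNA and joins amino acids into protein, is built from ribosomal RNA and a large set of small proteins. The genes of these proteins were followed in liver and white adipose tissue of DIO (diet-induced obese) mice given halofuginone, an inhibitor of prolyl-tRNA synthetase, or vehicle. Members were the genes whose symbol is Rpl, Rps or Rplp followed by a number and at most 1 of the letters a, x, l or y. This rule took 79 of the 22322 genes in the deposited tables, of which 49 belong to the large subunit and 30 to the small subunit. The rule used names alone and no measured value. Genes of the ribosome with other names, such as Rpsa and Rps3a1, fell outside it and are given as a list of their own.

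RNA selected on its poly(A) tail was sequenced from 4 groups. Liver came from 5 vehicle libraries (labelled HFD) and 5 halofuginone libraries (labelled H100). White adipose tissue, called fat from here on, came from 3 vehicle and 3 halofuginone libraries. Halofuginone was injected into the peritoneum at 100 μg/kg every 2 days, vehicle mice were injected on the same schedule, and tissue was taken after 8 weeks. All 4 groups carry the DIO and HFD labels and all were injected, so no lean or uninjected group enters here. The labels give neither strain, sex, age nor fat depot. They do not say whether each library is a separate animal, so the p-values measure the spread between libraries.

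Every growing or secreting cell spends much of its transcription and translation on ribosomes, and the liver, which exports most plasma proteins, holds many of them. Messenger RNAs of ribosomal proteins begin with a run of pyrimidines at the cap (a terminal oligopyrimidine, or TOP, sequence). Through it their translation and stability follow the kinase complex mTORC1 and the RNA-binding protein Larp1. The proteins are made in near equal numbers, go to the nucleolus, and join ribosomal RNA there with the help of assembly factors. A few have tissue-specific or stress-induced copies, among them Rps27l, Rpl3l, Rpl10l and Rpl39l.

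Libraries held 20309956 to 31980683 counts in liver and 17070614 to 21387799 in fat. Levels are given as CPM, counts relative to library size after scaling with TMM factors, which were computed for each tissue on its own. Summed CPM of 8 hepatocyte markers was 115566 to 132626 in vehicle liver and 2.94 to 3.60 in vehicle fat. Summed CPM of 7 adipocyte markers was 11481 to 22120 in vehicle fat and 61.0 to 137 in vehicle liver, where Plin1 and Lep had 0 counts, so each tissue carried the markers of its label. Halofuginone liver 1 stood apart from the other 4 halofuginone livers in most members. The counts of members called in liver and in the contrast are given with and without it.

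A total of 76 members had enough counts to be tested in each tissue, 46 of the large and 30 of the small subunit. The other 3 were Rpl3l, Rpl10l and Rpl39l, the copies known from muscle and testis. In liver the highest count of any library was 2 for Rpl3l, 0 for Rpl10l and 1 for Rpl39l. In fat it was 7, 15 and 9 counts in the same order. These 3 members were at or near the limit of detection in liver, and low but detected in some libraries in fat.

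In liver the ribosomal protein transcripts were higher with halofuginone almost throughout. A member was called when its p in edgeR's quasi-likelihood test, adjusted over all 12311 genes tested by the Benjamini-Hochberg method, was under 0.05. By this rule 65 of 76 tested members rose and 0 fell, while 12.7% of all genes tested rose and 10.5% fell. Scaling by library size alone, which moved the median over all genes to a log2 fold change of 0.17, gave 74 members higher and 0 lower, beside 22.7% of all genes higher and 6.81% lower. With TMM the large subunit gave 40 called of 46 and the small subunit 25 of 30. The median log2 fold change was 0.48 over the members, 0.48 over the large subunit, 0.50 over the small subunit and 0.02 over all genes tested. The fold change was positive in 75 of 76 members, against 51.7% of all genes. These are amounts of RNA in whole tissue. A change in the cells present and a change in RNA per cell cannot be told apart in them.

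**Figure D1:**
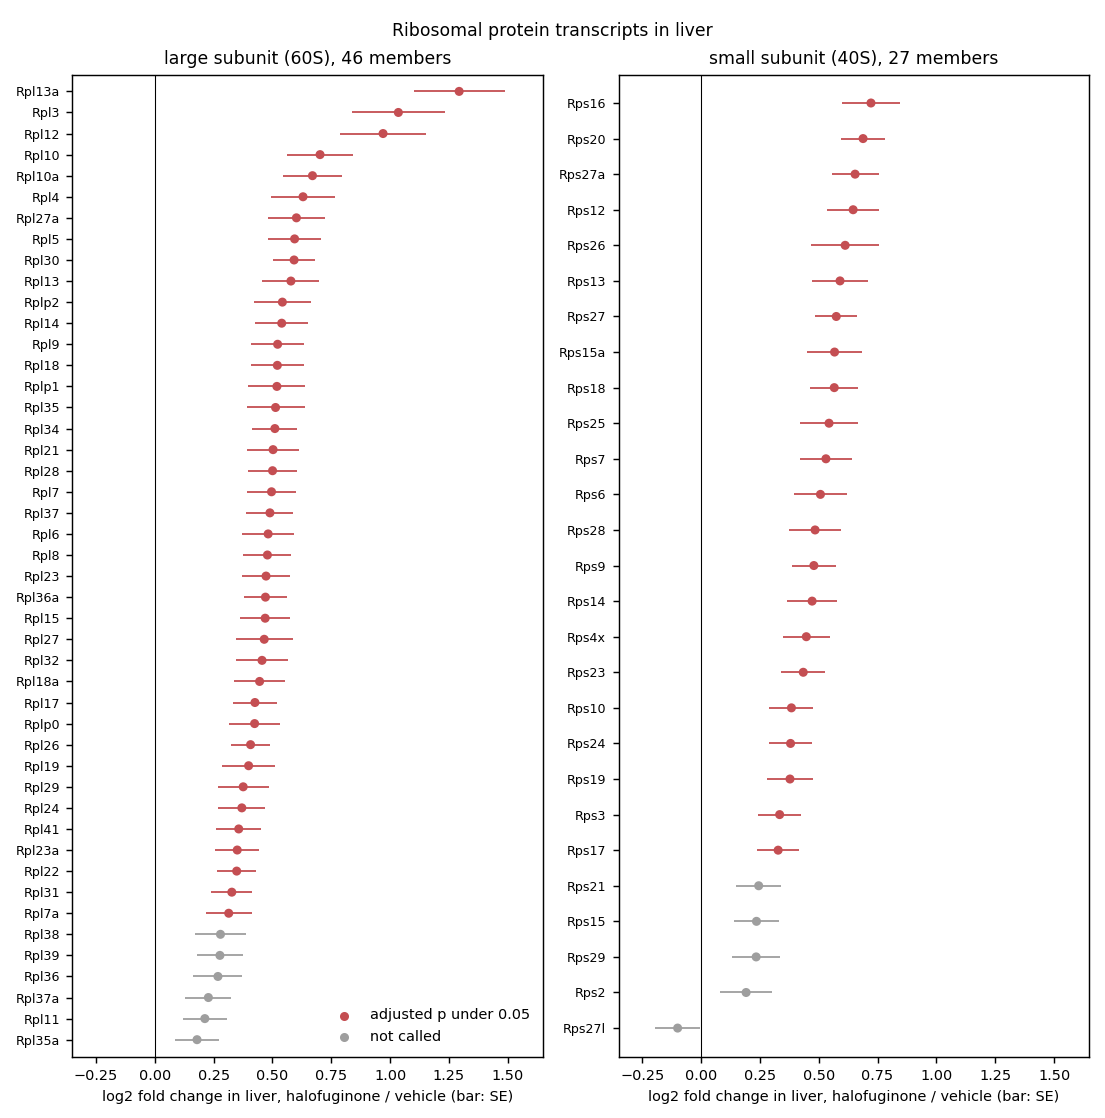
Fitted log2 fold change (halofuginone over vehicle) with its standard error for 73 of the 76 tested members in liver, 5 against 5 libraries, large subunit on the left and small subunit on the right. Red points have an edgeR adjusted p under 0.05 and grey points do not; 62 red points lie to the right of 0, with Rpl13a, Rpl3 and Rpl12 farthest out, and Rps27l is the only point to the left.

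The size of the difference was narrow for most members. Of the 76, 68 had a log2 fold change over 0.25, 34 over 0.5 and 3 over 0.75, and the standard deviation over members was 0.20. In 59 members all 5 halofuginone libraries lay above all 5 vehicle libraries, against 5.13% of all genes tested. A further 14 members had 4 halofuginone libraries above every vehicle library, a count for which no share of all genes was taken. The members' summed share of all counts was 0.830, 0.887, 0.849, 0.951 and 0.904% in vehicle livers 1 to 5. It was 1.05, 1.40, 1.72, 1.43 and 1.46% in halofuginone livers 1 to 5, so the groups did not overlap and the ratio of the means was 1.60. Over the counts outside the 100 most abundant genes, a measure added after seeing the data, the ratio was 1.53.

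Halofuginone liver 1 was the library closest to vehicle. The mean deviation of the 76 members from their vehicle mean, in log2 of CPM plus 0.5, was -0.09, 0.04, -0.03, 0.04 and 0.04 in the vehicle livers. It was 0.18 in halofuginone liver 1 and 0.42, 0.60, 0.60 and 0.56 in the other 4. That library was above every vehicle library in 64 of 76 members and was the lowest of the 5 halofuginone livers in 66. The matching shares of all genes were not counted, so whether these counts are particular to the members cannot be told. Without it edgeR called 69 members higher and 0 lower (21.2 and 21.6% of all genes) and the median log2 fold change was 0.52. Halofuginone livers 2 to 5 lay above every vehicle library in 68 members, against 18.7% of all genes tested.

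**Figure D2:**
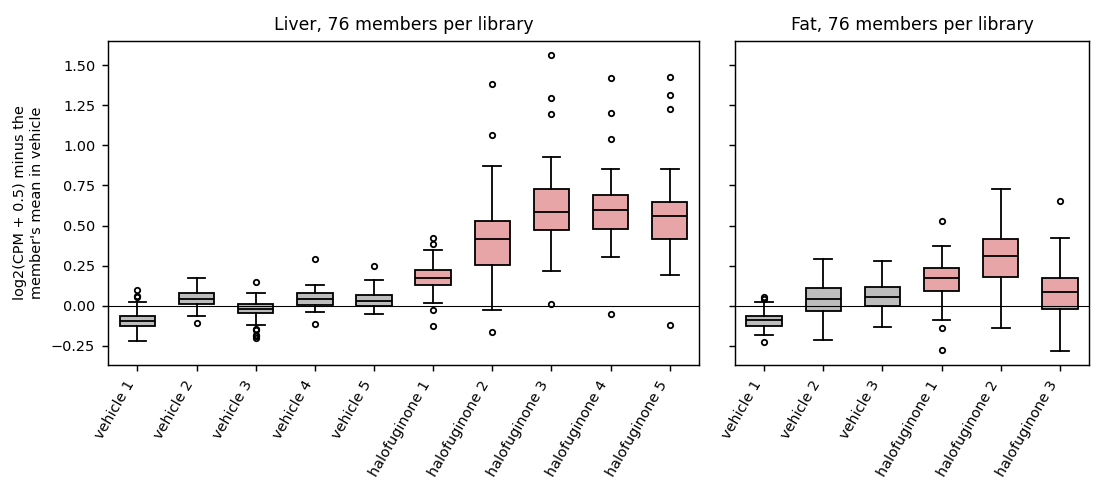
Deviation of the 76 tested members from their own vehicle mean, in log2(CPM + 0.5), in each library of liver (left) and fat (right); boxes span the quartiles with the median as a line, whiskers reach the farthest members within the standard limit, and circles are members beyond them. Grey boxes are vehicle and red boxes halofuginone; in liver the mean deviation is 0.18 in halofuginone 1 and 0.42 to 0.60 in the other 4, and in fat it is 0.16, 0.29 and 0.10.

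The 3 largest rises were all of large-subunit transcripts. Rpl13a encodes a protein of the large subunit that can also leave the ribosome and act as a translational silencer. Its level was 201, 206, 207, 223 and 207 CPM in the vehicle livers and 272, 546, 616, 560 and 562 CPM in the halofuginone livers. All halofuginone libraries were above all vehicle libraries, the mean rose 2.45-fold (209 ± 8.25 to 511 ± 136 CPM, SD, n = 5 each), and the log2 fold change was 1.29 ± 0.19 (SE, edgeR adjusted p = 0.0037). Without halofuginone liver 1 the log2 fold change was 1.43.

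Rpl3, a core protein beside the site where peptide bonds form, stood at 158, 175, 142, 167 and 179 CPM in vehicle. With halofuginone it stood at 178, 344, 375, 378 and 407 CPM. Halofuginone liver 1 lay just under the highest vehicle library and the other 4 lay far above it, and the log2 fold change was 1.03 ± 0.20 (edgeR adjusted p = 0.0080). Rpl12 sits at the base of the ribosomal stalk, where elongation factors dock. Its level was 100.0, 110, 107, 119 and 111 CPM in vehicle and 123, 198, 269, 225 and 257 CPM with halofuginone, with no overlap and a log2 fold change of 0.97 ± 0.18 (edgeR adjusted p = 0.0079).

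Among the other large-subunit members, Rpl10, which joins last and closes the maturation of the particle, was 145, 183, 168, 159 and 160 CPM in vehicle liver. It was 183, 298, 272, 291 and 282 CPM with halofuginone (log2 fold change 0.70 ± 0.14, edgeR adjusted p = 0.0092). Halofuginone liver 1 was level with the highest vehicle library and the others were well above. Reads of Rpl10 may be shared with its near-identical copy Rpl10-ps3, a row outside the rule, which had a log2 fold change of 0.63 ± 0.12 (edgeR adjusted p = 0.00865). The stalk proteins Rplp0, Rplp1 and Rplp2, which recruit elongation factors, had log2 fold changes of 0.42, 0.52 and 0.54 and were all called. Rplp0 lost its call when vehicle liver 5, halofuginone liver 3 or halofuginone liver 5 was left out, with adjusted p of 0.0507 to 0.0527.

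Rpl5 and Rpl11 form a particle with a small ribosomal RNA and, when free, bind the p53 ligase Mdm2. They differed here. Rpl5 was 181, 193, 195, 188 and 191 CPM in vehicle and 221, 295, 317, 293 and 305 CPM with halofuginone, without overlap (log2 fold change 0.59 ± 0.11, edgeR adjusted p = 0.0080). Rpl11 was 129, 143, 131, 148 and 146 CPM in vehicle and 145, 152, 168, 172 and 170 CPM with halofuginone. Of the halofuginone libraries, 1 lay inside the vehicle range, and the log2 fold change of 0.21 ± 0.09 did not pass (edgeR adjusted p = 0.11). The difference between Rpl5 and Rpl11 was not tested.

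In the small subunit no member had a log2 fold change over 0.75. Rps16 and Rps20, proteins of the head of the subunit, had log2 fold changes of 0.72 and 0.69. Rps20 was 35.1, 39.4, 36.0, 36.0 and 37.9 CPM in vehicle and 49.5, 55.8, 67.6, 64.9 and 59.1 CPM with halofuginone (edgeR adjusted p = 0.0032). The halofuginone libraries were all above the vehicle ones, halofuginone liver 1 included. Rps27a, made as a fusion with ubiquitin, had a log2 fold change of 0.65 ± 0.10 (edgeR adjusted p = 0.0038).

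Rps6, the protein phosphorylated by S6 kinase downstream of mTORC1, was 256, 270, 274, 285 and 269 CPM in vehicle and 305, 386, 409, 413 and 410 CPM with halofuginone. The groups did not overlap and the log2 fold change was 0.51 ± 0.11 (edgeR adjusted p = 0.013). Rps4x, encoded on the X chromosome, had 0.45, and Rps25, known for its part in cap-independent initiation, had 0.54. Rpl22, Rpl36a and Rpl41 had 0.35, 0.47 and 0.36. All 5 were called, but Rpl41 lost its call when any of vehicle livers 1, 2 and 3 or halofuginone livers 3, 4 and 5 was left out, with adjusted p of 0.0522 to 0.0633.

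The 11 tested members that were not called had log2 fold changes of -0.10 to 0.28. They were Rpl11, Rpl35a, Rpl36, Rpl37a, Rpl38 and Rpl39 of the large subunit and Rps2, Rps15, Rps21, Rps27l and Rps29 of the small subunit. Rps2, which lines the entry of the mRNA channel, had the highest FPKM, a level per transcript length, of all members in vehicle liver. It was 461, 529, 469, 520 and 489 CPM in vehicle and 509, 512, 578, 628 and 590 CPM with halofuginone, so the groups overlapped (log2 fold change 0.19 ± 0.11, edgeR adjusted p = 0.22). Rpl38, known for its part in the translation of Hox mRNAs, had 0.28 ± 0.11 (edgeR adjusted p = 0.083) and Rpl39, a small protein of the exit tunnel, 0.28 ± 0.10 (edgeR adjusted p = 0.059). Rpl11, Rpl38 and Rpl39 passed when halofuginone liver 1, their lowest halofuginone library, was left out, with edgeR adjusted p of 0.041, 0.016 and 0.023. Over all fits that left out a single library their edgeR adjusted p ran up to 0.23, 0.20 and 0.14.

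Rps27l was the only member tested in liver with a negative fold change. It is a copy of Rps27 whose gene is known as a target of p53. Rps27 was 42.3, 44.7, 43.3, 46.7 and 47.6 CPM in vehicle and 56.6, 65.7, 67.1, 75.4 and 69.5 CPM with halofuginone (log2 fold change 0.57 ± 0.09, edgeR adjusted p = 0.0041). Rps27l was 47.4, 50.1, 47.4, 63.3 and 51.4 CPM in vehicle and 47.3, 45.9, 51.9, 49.8 and 47.4 CPM with halofuginone (-0.10 ± 0.10, edgeR adjusted p = 0.46). Its groups overlapped and its sign turned to 0.06 when libraries were scaled by size alone. Without single libraries the log2 fold change of Rps27l ran from -0.14 to -0.02. The log2 ratio of Rps27 to Rps27l was -0.20 ± 0.13 in vehicle and 0.46 ± 0.14 with halofuginone (SD, n = 5 each). The difference of 0.66 had p = 0.0079 in a two-sided exact permutation test, the smallest p that 5 against 5 libraries allow. Rps27 alone already had groups without overlap, so this p does not single out the pair, and it was not adjusted. In fat the ratio was 1.19 ± 0.05 and 1.33 ± 0.16 (n = 3 each), a difference of 0.14 with p = 0.20 in the same exact permutation test, which cannot go below 0.10 for 3 against 3.

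**Figure D3:**
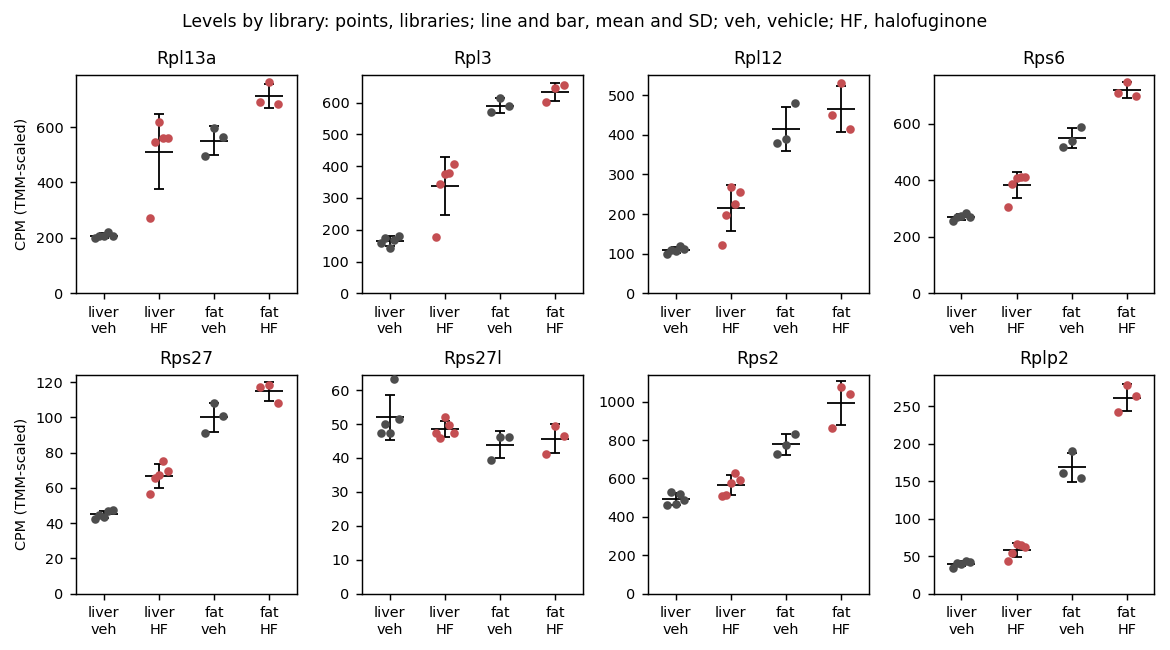
CPM of 8 members in each library; points are libraries, grey for vehicle (veh) and red for halofuginone (HF), and lines with bars are the mean and SD. CPM was scaled within each tissue, so liver and fat are not on one scale; in liver Rpl13a runs from 201 to 223 in vehicle and 272 to 616 with halofuginone, and Rps27l stays between 45.9 and 63.3.

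The starts of a few of these genes are shown because TOP sequences mark this gene family, and the members below differ in their liver fold change. The sequences come from RefSeq promoters on the build GRCm38.p6, whereas the counts were made on another build, so these coordinates belong to the sequences only. Each is 60 bases, 40 before the annotated start and 20 from it, read on the strand of the gene. Capitals mark a run of at least 6 pyrimidines (C or T) that opens with C within 20 bases of the start.
Rpl13a, chr7:45128726-45128785, minus strand: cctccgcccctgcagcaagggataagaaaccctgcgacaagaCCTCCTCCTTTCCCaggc
Rpl12, chr2:32961672-32961731, plus strand: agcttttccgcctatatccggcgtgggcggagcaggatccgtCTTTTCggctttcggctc
Rplp2, chr7:141447611-141447670, plus strand: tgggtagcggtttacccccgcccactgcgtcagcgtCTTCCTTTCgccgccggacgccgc
Rps6, chr4:86857348-86857407, minus strand: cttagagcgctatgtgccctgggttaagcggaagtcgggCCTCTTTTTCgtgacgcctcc
Rps27, chr3:90213629-90213688, minus strand: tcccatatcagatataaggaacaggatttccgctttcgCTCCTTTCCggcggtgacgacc
Rps27l, start 1, chr9:66946046-66946105, plus strand: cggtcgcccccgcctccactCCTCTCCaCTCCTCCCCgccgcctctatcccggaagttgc
Rps27l, start 2, chr9:66946373-66946432, plus strand: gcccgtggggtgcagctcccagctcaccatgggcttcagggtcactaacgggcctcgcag
Rpl11, chr4:136053374-136053433, minus strand: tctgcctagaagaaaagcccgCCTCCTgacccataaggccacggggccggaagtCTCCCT
Rps2, chr17:24720023-24720082, plus strand: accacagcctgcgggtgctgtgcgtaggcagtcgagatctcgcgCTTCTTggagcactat

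Rps27l has 2 annotated starts, and its start 2 holds no such run. A run is present in the other 8 stretches, in members that rose most (Rpl13a, Rpl12) and in members that were not called (Rps27l, Rpl11, Rps2). The longest is the 14-base run of Rpl13a. Of the 79 members, 59 had a RefSeq promoter, and 67.8% of these held such a run near the start, against 32.8% of 27025 genes. Of the 39 tested members with a run, 31 were called higher in liver, with a median log2 fold change of 0.51. Of the 17 without, 16 were called, with a median of 0.46. A match is a description of letters near an annotated start, which may lie some bases from the start used in these tissues.

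Other short motifs were counted on either strand of the 300 promoter bases. A gene counted once if any of its annotated starts held the motif. The 27025 genes with a promoter were not limited to genes tested in liver or fat. CCGGAAG, a core bound by ETS factors, was in 40.7% of members with a promoter and 9.93% of all genes with a promoter. TCTCGCGA was in 16.9 and 1.13%, CTTTCC in 52.5 and 29.3%, and GGGCGG, the GC box, in 59.3 and 38.2%. TATAAA was less frequent among members, in 10.2 against 15.7%. CTTTCC can lie inside the pyrimidine run, so these shares overlap.

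Member transcripts are short, and length, worked back from the deposited counts and FPKM (fragments scaled by length and library size), went with the fold change. The median length was 747 bases for the 65 called members and 500 for the 11 uncalled ones, beside 698 for all tested members and 2716 for all genes tested in liver. Across the 76 members the log2 fold change had a Pearson r of 0.38 with log2 length and a Spearman rho of 0.41. It had 0.02 and -0.01 with the vehicle level in FPKM, also as log2, and -0.06 and 0.07 with the number of named pseudogenes. These describe genes measured in the same libraries. With each library's trend on length removed, edgeR called 74 members higher and 0 lower (13.1 and 11% of all genes), all but Rps2 and Rps27l.

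Members have many processed pseudogenes, 284 named ones for 54 members in the GENCODE annotation used and at most 24 for a member (Rpl31 and Rps12). Reads shared with them could be divided or dropped by the authors' counting, so the level of any single member is uncertain.

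Other measures moved in the same liver libraries. Summed CPM of the 8 hepatocyte markers was 115566 to 132626 in vehicle and 48121 to 108707 with halofuginone, with 3 of 8 called lower and 0 higher. Albumin took 7.84 to 9.66% of counts in vehicle and 3.17 to 7.98% with halofuginone, and mitochondrial transcripts took 8.26 to 9.68% and 6.45 to 8.11%. In halofuginone livers 1 to 5 the hepatocyte sum was 108707, 61875, 48121, 94269 and 83966 CPM. Albumin took 7.98, 3.55, 3.17, 6.19 and 5.84%, and mitochondrial transcripts 8.11, 6.45, 6.88, 7.62 and 7.79%, in the same order. Halofuginone liver 1 was the closest to vehicle in these and in the members. Among the others the order differed. Halofuginone livers 3 and 4 both had a member mean deviation of 0.60, beside hepatocyte sums of 48121 and 94269 CPM. Of the 8 macrophage markers 0 were called either way, with summed CPM of 460 to 619 and 395 to 737. Summed CPM of 9 lymphocyte markers was 10.6 to 42.4 and 9.61 to 27.0. Of the other lists in liver, endothelium had 3 of 6 markers lower and 1 higher, with summed CPM of 152 to 174 and 140 to 174. Adipocyte markers had 2 lower of 3 tested, with summed CPM of 61.0 to 137 and 23.4 to 73.6, and erythrocyte markers 1 lower of 5, with 135 to 249 and 72.3 to 138. Epithelial markers had 0 called of 3 tested, with summed CPM of 156 to 311 and 91.5 to 232, and skeletal muscle and epididymal markers were below 1 CPM in sum in every liver library. The part of these changes in the member result was not tested.

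The other genes of the translation machinery, taken from lists, followed the members in part. Of 8 ribosomal or ribosome-bound proteins outside the naming rule, 5 rose and 0 fell, with a median log2 fold change of 0.44. Rpl22l1, the copy of Rpl22, went from 4.85 ± 0.96 to 10.6 ± 2.38 CPM (log2 fold change 1.13 ± 0.18, edgeR adjusted p = 0.0050). The scaffold protein Rack1 had 0.67, Rpsa 0.63, Rps3a1 0.47 and Rpl36al 0.40. Fau, made as a fusion of a ribosomal protein with a ubiquitin-like protein, had 0.26 ± 0.09 and did not pass (edgeR adjusted p = 0.064).

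Of 17 translation factors and other TOP mRNAs, 8 rose and 0 fell, with a median of 0.36. They included Btf3 (0.68), the nucleolar chaperone Npm1 (0.60), the poly(A)-binding protein Pabpc1 (0.58) and the elongation factor subunit Eef1b2 (0.49). The abundant elongation factors Eef1a1 and Eef2 had 0.22 and 0.31 and did not pass (edgeR adjusted p = 0.26 and 0.15). Of 28 genes of ribosome assembly and RNA polymerase I, 9 rose and 0 fell, with a median of 0.32. Among them were the polymerase subunits Polr1e (0.98) and Polr1c (0.73) and the assembly factors Nip7 (0.70) and Ltv1 (0.69), while fibrillarin (Fbl) had 0.06 and the catalytic subunit gene Polr1a 0.03.

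Of 10 regulators of TOP mRNAs, 0 rose and 2 fell, Larp4 (-0.50) and the mTOR partner Mlst8 (-0.42), with a median of -0.09. Larp1 averaged 140 CPM in vehicle and 138 CPM with halofuginone (log2 fold change -0.02 ± 0.09, SE, edgeR adjusted p = 0.89). The 78 ribosomal proteins of mitochondria, which are made in the cytosol but build a different ribosome, gave 10 higher and 5 lower with a median of 0.04. Their shares called, 10 and 5 of 78, stand beside 12.7 and 10.5% of all genes.

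**Figure D4:**
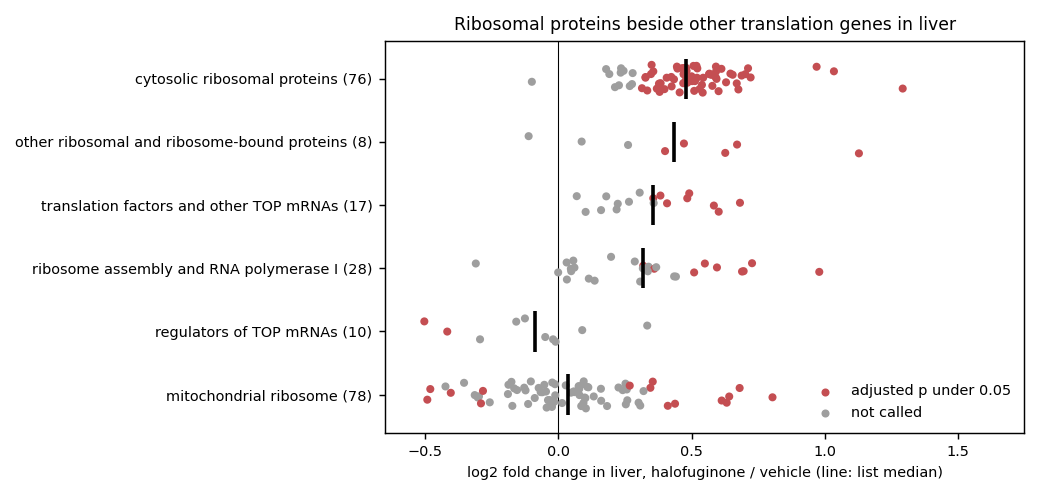
Fitted log2 fold change in liver of each tested gene of the cytosolic ribosomal proteins and of 5 other lists, with the number of genes in brackets; vertical bars are list medians, red points have an edgeR adjusted p under 0.05. Medians run from 0.48 for the cytosolic ribosomal proteins over 0.44, 0.36 and 0.32 to -0.09 for the regulators and 0.04 for the mitochondrial ribosome.

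In fat 0 of 76 tested members passed in edgeR, and neither did any of the 14030 genes tested (0% called in either direction). At an unadjusted edgeR p under 0.05, 3 members were higher (5.5% of all genes) and 0 lower (7.91% of all genes). DESeq2 called 2 members, Rplp2 and Rps6, both higher, beside 1.12% of all genes higher and 2.41% lower. Fold changes were positive in 69 of 76 members, against 51.2% of all genes, and their median log2 fold change was 0.19 against 0.01 for all genes tested. In 27 members all 3 halofuginone libraries lay above all 3 vehicle libraries (10.2% of all genes), and in 2 all lay below (10.4% of all genes). The members' share of counts was 2.12, 2.35 and 2.25% in vehicle and 2.62, 2.80 and 2.59% with halofuginone, without overlap and with a ratio of the means of 1.19.

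The member with the smallest adjusted p in fat was Rplp2, at 161, 190 and 154 CPM in vehicle and 243, 278 and 264 CPM with halofuginone. Its groups were well apart (169 ± 19.1 against 262 ± 18.1 CPM, SD, n = 3 each), and the log2 fold change was 0.63 ± 0.16 (edgeR adjusted p = 0.20). Rpl18 had 0.41 ± 0.15 and Rps6 0.39 ± 0.15, with edgeR adjusted p of 0.33 and 0.34. Rps6 was 518, 540 and 589 CPM in vehicle and 709, 749 and 696 CPM with halofuginone, also without overlap. Rps2, uncalled in liver, was 727, 773 and 833 CPM in vehicle and 863, 1076 and 1039 CPM with halofuginone (log2 fold change 0.35 ± 0.17, edgeR adjusted p = 0.42).

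The 3 members with the largest rises in liver had smaller fold changes in fat. Rpl13a was 494, 596 and 564 CPM in vehicle fat and 691, 761 and 682 CPM with halofuginone, a log2 fold change of 0.37 ± 0.16 (edgeR adjusted p = 0.38). Rpl3 was 570, 614 and 589 CPM against 602, 645 and 655 CPM (0.10 ± 0.14, edgeR adjusted p = 0.81). Rpl12 was 378, 390 and 480 CPM against 450, 531 and 415 CPM (0.16 ± 0.18, edgeR adjusted p = 0.75). Only Rpl13a of the 3 had groups that did not overlap in fat.

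Negative fold changes in fat were small, -0.17 for Rpl10, -0.15 for Rps26, -0.09 for Rpl31 and -0.06 to -0.02 for Rps10, Rpl37a and Rpl11. Rpl10 was 360, 356 and 416 CPM in vehicle and 310, 345 and 353 CPM with halofuginone. Rps26, a protein of the mRNA exit channel, was 262, 272 and 305 CPM in vehicle and 254, 253 and 251 CPM with halofuginone. These 2 had all halofuginone libraries below all vehicle libraries, and neither passed (edgeR adjusted p = 0.69 and 0.71). Rpl10-ps3, the near-identical copy, had a log2 fold change of 0.28 in fat (edgeR adjusted p = 0.49). Rpl11, Rpl37a and Rps10 turned positive with scaling by library size alone.

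The other lists gave 0 calls in fat as well, with medians of 0.21 for the ribosomal proteins outside the rule, 0.15 for translation factors, 0.32 for assembly factors, 0.09 for the regulators and 0.12 for the mitochondrial ribosome. Summed CPM of 8 macrophage markers was 6080 to 14175 in vehicle fat and 4994 to 5911 with halofuginone, and that of 9 lymphocyte markers 824 to 1814 and 596 to 905. Adipocyte markers summed to 11481 to 22120 and 18428 to 22099 CPM. Skeletal muscle markers summed to 92.9 to 174 CPM in vehicle and 52.8 to 62.2 CPM with halofuginone, without overlap. Epididymal markers summed to 0.54, 1.44 and 76.2 CPM in vehicle fat 1 to 3 and 12.3, 0.60 and 4.42 CPM in halofuginone fat 1 to 3. Endothelial, erythrocyte and epithelial markers overlapped between the groups, at 551 to 1419 and 1138 to 1609 CPM, 315 to 677 and 204 to 819 CPM, and 17.7 to 87.0 and 12.6 to 73.1 CPM. The hepatocyte markers summed to at most 7.79 CPM in any fat library. The part of these differences in the member values was not tested.

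The drug effect was compared across tissues in 1 fit of all 16 libraries, taken as independent, with the effect in liver subtracted from that in fat. In edgeR 0 of 76 members passed, beside 0.417% of all 14853 genes higher and 0.532% lower. The contrast was negative in 73 of 76 members (53.1% of all genes), with a median of -0.31 against -0.04 for all genes. At an unadjusted edgeR p under 0.05, 27 members were lower (8.83% of all genes) and 0 higher (6.91% of all genes). The smallest adjusted p was that of Rpl10, with a contrast of -0.89 ± 0.22 (edgeR adjusted p = 0.065). Rpl3 had -0.96 ± 0.29, Rpl13a -0.95 ± 0.29, Rpl12 -0.83 ± 0.28 and Rps26 -0.78 ± 0.22, with edgeR adjusted p of 0.10 to 0.16.

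This result depended on the tool and on a single library. DESeq2 called 11 members lower and 0 higher in the contrast (2.04 and 1.59% of all genes), among them Rpl3, Rpl6, Rpl10, Rpl13a, Rpl14, Rpl26, Rps9, Rps10, Rps26 and Rps27a. Without halofuginone liver 1, edgeR called 17 members lower and 0 higher (4.13 and 2.94% of all genes), and Rpl10, Rpl13a and Rpl3 had contrasts of -0.999, -1.11 and -1.12. Rplp2, Rps2 and Rps27l were the 3 members with positive contrasts, at 0.07, 0.14 and 0.14, none of them called.

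**Figure D5:**
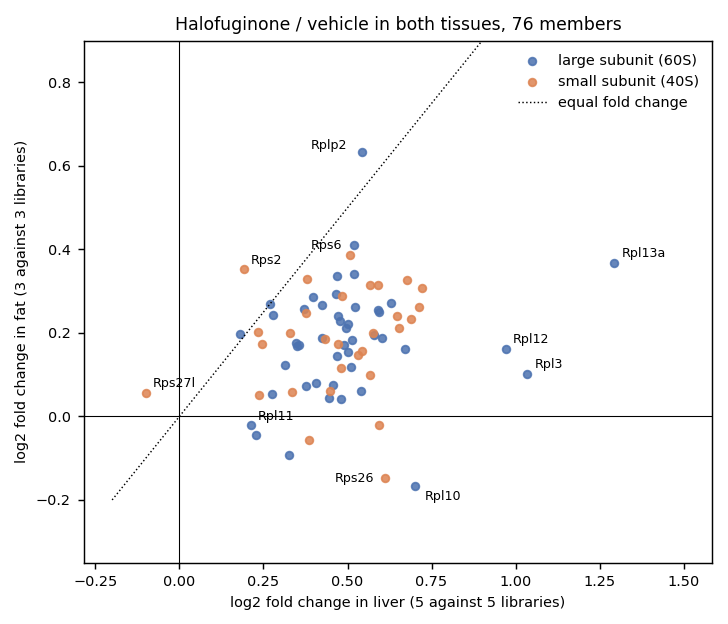
Log2 fold change of each of the 76 tested members in liver (horizontal, 5 against 5 libraries) and fat (vertical, 3 against 3 libraries), blue for the large and orange for the small subunit; the dotted line marks equal change. Most points lie below the line, Rpl13a, Rpl3 and Rpl12 lie far to the right, and Rplp2, Rps2 and Rps27l lie farthest above the line.

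Without drug, members were called between the tissues less often than all genes with TMM scaling, and the count depended on scaling. In vehicle fat against vehicle liver, 25 of 76 members were higher and 3 lower with TMM scaling, beside 40.9 and 31.5% of all genes, and their median was 0.22 against 0.18 for all genes. With scaling by library size alone 75 were higher and 0 lower, beside 73.3 and 11.6% of all genes. That scaling moved the median of all genes to 1.36. The 5 largest positive differences with TMM were Rplp2 (0.93), Rps12 (0.92), Rps19 (0.87), Rps20 (0.85) and Rpl12 (0.78). Those called lower in fat were Rps27l (-1.39 ± 0.12), Rps2 (-0.49 ± 0.14) and Rpl7a (-0.30 ± 0.12). Rps2 and Rpl7a turned positive with library size alone, while Rps27l did not.

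Per length, in the deposited FPKM, member levels spanned a wide range in vehicle. In liver they ran from 9.42 for Rps20 to 468 for Rps2 with a median of 132, and in fat from 38.7 for Rps20 to 830 for Rps24 with a median of 345. The FPKM of Rps20 divides by a length of 3706 bases, above the 698 bases of the median member. After Rps2 the highest in liver were Rps14, Rps6 and Rps24, at 294, 292 and 279 FPKM. The order was much alike in the tissues, with a Pearson r of 0.92 and a Spearman rho of 0.92 over the 76 members, given as a description of genes that share libraries and lengths. The largest moves in that order were those of Rps12, from rank 40 of 76 in liver to rank 15 in fat, and Rps27l, from rank 54 to rank 75.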

How the data were processed

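Poly(A)-selected RNA from 10 liver and 6 fat libraries was sequenced. Per the submitters' processing notes, fastp 0.18.0, Bowtie2 2.2.8, HISAT2, StringTie 1.3.1, RSEM and the build mm39 were used, with no role given for each. The authors deposited whole-number counts and FPKM per gene and library, and the counts may be rounded estimates. A table of names paired symbols with 22267 of 22322 gene identifiers, and 0 sample columns were left unmapped. Members and lists were chosen with earlier results of these data known.

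Separate edgeR 4.0.16 fits were made for liver and fat under R 4.3.3, with TMM factors and genes kept by filterByExpr (glmQLFit, glmQLFTest, two-sided, Benjamini-Hochberg over all genes). SE is the absolute log2 fold change over the square root of F. Members named with values are the 8 largest of each sign per tissue and the 5 largest of each sign in the contrast and between tissues, above 5 CPM, and a fixed list of 22. Further members called or left uncalled in a group are named to complete a count or an order, after their values were seen. A few genes are counted but not reported by name here. Medians are over fitted values. No library pair of a group was alike within sampling noise (smallest chi-square per degree of freedom 29.7 in liver and 50.5 in fat). A count of 0 allows 3 counts, for counting error only. Pseudogene names came from GENCODE and promoters from RefSeq. Alternatives were DESeq2 1.42.0, its size factors, library size alone, other filters, robust dispersion, a replicate block, limma 3.58.1 on log2(FPKM + 1) or log2(FPKM + 0.1), removal of a length trend, 1 fit of all groups and leaving out each library. The share outside the 100 most abundant genes and the overlap of groups without halofuginone liver 1 were added after seeing the data. The scripts were tested on simulated data.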

Additional observations from a re-analysis of the deposited data

Results flagged for a closer look

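In 7 of 48 groups of 5 liver libraries examined for the named members, the highest or lowest library stood farther from its nearest neighbour than Dixon's 95% critical value of 0.71 of the range allows. Chance flags about 1 in 20 groups, which is 2.4 of 48. In 6 of the 7 the library was halofuginone liver 1, lowest of its group. It had 183 CPM of Rpl10 (next lowest 272), 272 CPM of Rpl13a (next 546) and 178 CPM of Rpl3 (next 344). It also had 119 CPM of Rpl41 (next 146), 221 CPM of Rpl5 (next 293) and 305 CPM of Rps6 (next 386). The members share this library, so the 6 are not independent. The other was vehicle liver 4, with 63.3 CPM of Rps27l where the next highest vehicle library had 51.4 CPM.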

How the results depend on the processing

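In liver the count of members called stayed within 1.5 times 65 under all 11 other settings and all 10 fits that left out a library (53 to 69), and all were higher. It was 66 with DESeq2 and 74 with library size alone, FPKM or the length trend removed. Over all genes, 1907 of 16596 were higher with DESeq2, 2086 of 9987 with log2(FPKM + 1) and 2085 of 9987 with log2(FPKM + 0.1). Leaving out single libraries gave 696 of 12426 to 2628 of 12422 genes higher. With the replicate number as a block the count of members was 55 (7.23% of all genes higher), all among the 65. All 65 were also called with DESeq2, and 53 of them in each leave-one-out fit. The median log2 fold change of 0.48 moved to 0.64 with library size alone, 0.62 with log2(FPKM + 1) and 0.63 with log2(FPKM + 0.1), where the median of all genes was 0.17, 0.15 and 0.17. It ran from 0.43 to 0.52 without single libraries. Rps27l turned to 0.056, 0.061 and 0.061 under these 3. Rpl41 and Rplp0 lost their call with the block (adjusted p = 0.058 and 0.054). Same-numbered deviations correlated at -0.18 to 0.10 in liver and -0.59 to 0.16 in fat. Those with different numbers correlated at -0.16 to 0.20 and -0.42 to 0.52. With so few libraries this cannot exclude a pairing, and liver libraries were not compared with fat libraries. The block left 0 members called in fat and 0 in the contrast.

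In fat DESeq2 called 2 members, and 0 were called in any leave-one-out fit. Fat fold changes near 0 changed sign. With library size alone, log2(FPKM + 1) and log2(FPKM + 0.1), Rpl11 was 0.043, 0.052 and 0.052, Rpl37a 0.016, 0.028 and 0.028, and Rps10 0.0087, 0.015 and 0.015. With the length trend removed Rpl39 was -0.0074 and Rps27l -0.0042. Without single libraries Rpl11 ran from -0.073 to 0.051, Rpl31 from -0.16 to 0.043, Rpl37a from -0.11 to 0.068, Rpl39 from -0.062 to 0.19, Rps10 from -0.14 to 0.014 and Rps27l from -0.015 to 0.13. In the contrast the count was 11 with DESeq2 and 0 to 17 without single libraries. There Rplp2 was -0.011 with library size alone and -0.027 to 0.18 without single libraries, and Rpl38 -0.13 to 0.00098.

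Between vehicle tissues the 28 calls became 75 with library size alone, and ran from 23 to 38 without single libraries. Over all genes, 10746 of 14853 were called, 12611 of 14853 with library size alone, and 10326 of 14818 to 11053 of 14902 without single libraries. With library size alone Rpl11 was 0.98, Rpl22 0.96, Rpl36a 1.00, Rpl7a 0.89, Rps18 0.98, Rps2 0.70 and Rps6 1.06. Rps27 was -0.0075 with DESeq2 and -0.0088 with its size factors. Without single libraries Rpl5 ran from -0.019 to 0.13, Rplp0 from -0.021 to 0.11 and Rps27 from -0.072 to 0.067. The cause of these changes was not tested. With 3 against 3 fat libraries, standard errors over the 76 members ran from 0.14 to 0.21, which limits what could be called.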
